A study of Mus musculus with 30 samples.

Results

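The genes described here are 34 interferon response genes, listed by symbol and read from the count column of each library. All 34 were found among the 36528 gene identifiers of the files. The list was chosen with earlier results of these data known. It holds both subunits of the type I interferon receptor, the factors that carry its signal, and genes whose products act against viruses or trim the response.

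RNA was sequenced from sorted brain cells of mice aged 11.5 months. PS2APP mice, a plaque-forming line with transgenes for human amyloid precursor protein (APP) and presenilin 2 (PS2), were set against non-transgenic (non-Tg) littermates. From each genotype 3 cell populations were sorted: myeloid cells on Cd11b, astrocytes on Gfap and neurons on NeuN. Each of the 6 groups had 5 libraries, 30 in all. Which libraries share an animal, and whether any pools animals, is not in the labels. The p-values below therefore measure the spread between libraries, and replicate numbers only name them.

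Type I interferons bind a receptor made of Ifnar1 and Ifnar2, and the signal passes through the kinases Jak1 and Tyk2 to Stat2, which works with Irf9 at the interferon-stimulated response element (ISRE) of target genes. Interferon gamma acts at the gamma-activated site (GAS) and overlaps in its targets. In the brain, microglia, astrocytes and neurons can all respond, and a microglial state rich in such genes is known around amyloid plaques and in ageing.

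The promoters of the genes below show where these motifs lie. RefSeq windows on GRCm38.p6 that run from 250 bases before to 50 bases after a start site were matched for 25 of the 34 genes, in 30 windows. They were searched on both strands for the ISRE core, which is GAAA, any 2 bases and GAAA again, and for the GAS form TTCNNNGAA. The ISRE core was found in 12 of the 25 genes (48.0%) and in 3.99% of the 27025 genes with a window. By window, these were 43.3% of the 30 and 3.44% of all 32851. The GAS form was found in 8 of the 25 genes (32.0%) and in 9.55% of all genes with a window. Irf1, a known target of interferon gamma, had a GAS form at position -90 from its start site and no ISRE core. Bst2, Ifitm3 and Oas1a held both motifs, which overlap in Bst2 and Ifitm3. The 9 genes not matched were Ifi27l2a, Zbp1, Usp18, Oas2, Parp14, Parp9, Ifi204, Rtp4 and Mx1.

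The 5 promoters printed here belong to genes on which the results turn, and each shows the 250 bases before the start site, 5′ to 3′ on the gene's strand, with ISRE cores in capitals. Isg15 (minus strand, chr4:156200819-156201068) and Gbp3 (plus strand, chr3:142559794-142560043) hold overlapping cores close to the start. Stat2 (plus strand, chr10:128270248-128270497) holds a single core farther off. The windows of Rnf213 (plus strand, chr11:119389849-119390098) and Xaf1 (plus strand, chr11:72301379-72301628) hold neither motif. That says only that these letters are not in these windows. The annotated gene starts of Rnf213 (119389950), Xaf1 (72301461) and Gbp3 (142560016) lie inside the printed stretches, so part of each stretch is within the gene.
Isg15: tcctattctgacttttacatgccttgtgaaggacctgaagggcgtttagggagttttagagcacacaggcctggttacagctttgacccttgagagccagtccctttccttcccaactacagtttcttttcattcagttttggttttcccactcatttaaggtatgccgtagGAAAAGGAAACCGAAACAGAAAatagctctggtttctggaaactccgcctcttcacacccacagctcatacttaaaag
Gbp3: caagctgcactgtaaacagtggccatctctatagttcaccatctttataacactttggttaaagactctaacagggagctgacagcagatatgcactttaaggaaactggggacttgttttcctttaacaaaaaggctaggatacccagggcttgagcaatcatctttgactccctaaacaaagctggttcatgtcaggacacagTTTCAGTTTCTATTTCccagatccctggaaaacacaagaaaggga
Stat2: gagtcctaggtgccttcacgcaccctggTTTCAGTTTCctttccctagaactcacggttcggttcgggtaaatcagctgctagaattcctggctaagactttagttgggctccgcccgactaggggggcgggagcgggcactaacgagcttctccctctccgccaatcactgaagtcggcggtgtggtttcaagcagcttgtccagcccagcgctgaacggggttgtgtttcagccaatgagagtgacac
Rnf213: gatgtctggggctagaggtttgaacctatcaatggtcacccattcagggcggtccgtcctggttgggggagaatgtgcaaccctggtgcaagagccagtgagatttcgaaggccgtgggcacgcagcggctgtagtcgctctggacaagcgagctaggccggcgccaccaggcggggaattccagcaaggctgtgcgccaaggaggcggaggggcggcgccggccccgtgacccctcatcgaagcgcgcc
Xaf1: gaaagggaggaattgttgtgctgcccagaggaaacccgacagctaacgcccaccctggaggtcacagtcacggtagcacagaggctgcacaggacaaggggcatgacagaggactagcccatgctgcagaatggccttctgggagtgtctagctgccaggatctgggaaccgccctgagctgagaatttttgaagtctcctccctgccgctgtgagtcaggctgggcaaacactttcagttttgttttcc
In Isg15 the capitals hold 3 cores, at positions -78, -72 and -66 from the start site. In Gbp3 they hold 2, at -45 and -39, on the opposite strand. A second Gbp3 start site in RefSeq had no core in its window.

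Each sort held the highest sum of its own markers, and the sorts were not equally free of other cells. The 10 myeloid markers summed to 9964 ± 725 CPM (counts scaled to library size) in non-Tg myeloid libraries, and to 62.2 ± 14.9 and 65.9 ± 10.6 CPM in non-Tg astrocyte and neuron libraries (SD, n = 5 each). The 10 neuron markers summed in astrocyte libraries to 33.1% of their level in neuron libraries for non-Tg and to 44.1% for PS2APP. The 7 oligodendrocyte markers summed to 1007 ± 189 CPM in non-Tg astrocyte, 867 ± 184 in myeloid and 193 ± 42 in neuron libraries. Total counts ran from 2015535 to 6749681 per library. PS2APP myeloid libraries were shallower than non-Tg ones (two-sided exact permutation p = 0.00794). In both glial sorts the share of mitochondrial counts was higher in PS2APP libraries, with two-sided exact permutation p = 0.0556 in myeloid and 0.00794 in astrocyte libraries. On the first principal component, PS2APP myeloid replicate 4, PS2APP astrocyte replicate 3 and PS2APP neuron replicate 5 lay farthest out among the libraries of their sort. The submitters' sample identifiers of the astrocyte libraries form a range apart from those of the other sorts. What that range stands for is not stated, and it cannot be told apart from the sort.

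The non-Tg libraries show where the genes were expressed without plaques. Most were highest in myeloid cells and lowest in neurons: by mean CPM, 27 of 34 were highest in myeloid libraries, 7 in astrocyte libraries (Herc6, Ifit1, Ifit2, Ifit3, Isg15, Rsad2 and Stat2), and 31 were lowest in neuron libraries. Of the 33 genes tested in 1 edgeR quasi-likelihood fit of all 30 libraries (Benjamini-Hochberg adjusted p of 0.05), 22 were higher and 2 lower in myeloid than in astrocyte libraries, where 57.4% of all genes differed (26.8% higher, 30.7% lower). Against neurons, 31 were higher in myeloid cells and 1 was lower, with 67.9% of all genes differing (34.1% higher, 33.7% lower). Between the other two sorts, 25 were higher in astrocytes and 0 lower, with 51.7% of all genes differing (26.9% higher, 24.8% lower). The median log2 difference of the 33 genes was 1.75 for myeloid over astrocyte, 4.45 for myeloid over neuron and 2.06 for astrocyte over neuron, beside -0.11, 0.03 and 0.02 over all genes.

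The receptor chains did not share one pattern. Ifnar2 stood at 197 ± 19.2 CPM in non-Tg myeloid, 20.7 ± 6.07 in astrocyte and 10.3 ± 0.549 in neuron libraries, and Ifnar1 at 108 ± 19.5, 63.8 ± 27.5 and 32.9 ± 3.92 CPM in the same order (SD, n = 5 each). Each step down was called, with log2 differences for myeloid over astrocyte of 3.25 (edgeR adjusted p = 1.4e-15) for Ifnar2 and 0.76 (edgeR adjusted p = 0.0030) for Ifnar1. Per length, in the deposited RPKM, Ifnar2 was the most abundant of the 34 genes in non-Tg myeloid libraries at 17.3 RPKM. In non-Tg astrocyte and neuron libraries that place was held by Stat2, at 7.64 and 4.65 RPKM.

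Stat2 was the gene most even between the sorts among those that carry the signal. Its non-Tg level was 103 ± 21.3 CPM in myeloid, 110 ± 13 in astrocyte and 64.1 ± 9.99 in neuron libraries. The 2 glial levels did not differ beyond their spread (log2 difference -0.10, edgeR adjusted p = 0.70). Irf9, its DNA-binding partner, fell in steps from 47.2 ± 8.14 to 21.7 ± 2.08 to 13 ± 1.18 CPM, and both steps were called. Irf7, which drives interferon production, and Irf1, a factor of the gamma response, were called higher in myeloid than in astrocyte libraries and had no call between astrocytes and neurons (edgeR adjusted p = 0.16 and 0.093).

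The effector genes ranged widely in their non-Tg astrocyte level as a percentage of the myeloid level, from 2.19% for Zbp1 through 48.1% for Rnf213 and 52.3% for Gbp3 to 295% for Ifit1. The DNA sensor genes Zbp1 and Ifi204 stood at 15.3 ± 7.91 and 9.73 ± 3.01 CPM in non-Tg myeloid libraries, and at 0.335 and 0.230 CPM in non-Tg astrocyte libraries, below the level of 3 counts (0.444 to 1.49 CPM). Trim30a, a brake on Toll-like receptor signals, went from 158 ± 13.5 CPM in myeloid to 6.73 ± 5.58 CPM in astrocyte libraries. The antiviral genes Ifit1 and Isg15 went the other way. Ifit1 stood at 1.96 ± 1.69 CPM in myeloid, 5.78 ± 3.54 in astrocyte and 4.28 ± 1.28 in neuron libraries, with a log2 difference of -1.52 for myeloid over astrocyte (edgeR adjusted p = 0.030). Isg15, a ubiquitin-like protein linked to other proteins during the response, stood at 0.271 ± 0.189, 1.98 ± 0.862 and 1.78 ± 0.277 CPM, with -2.68 (edgeR adjusted p = 0.00057). For Isg15 the non-Tg myeloid value rests on 7 counts over 5 libraries. Between astrocyte and neuron libraries neither gene differed beyond its spread (edgeR adjusted p = 0.56 for Ifit1 and 0.85 for Isg15).

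**Figure D1:**
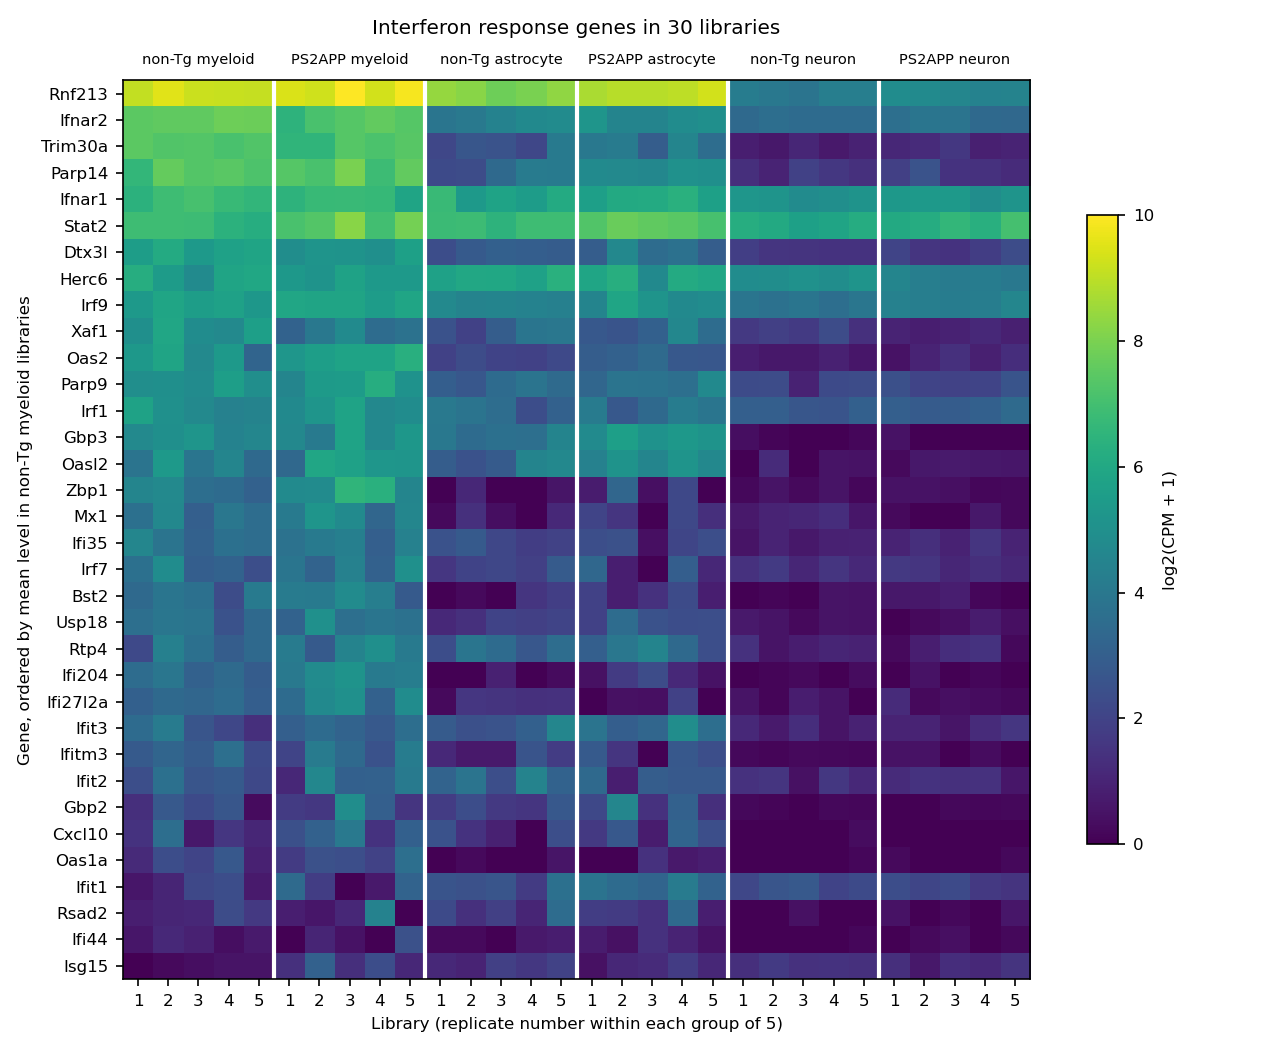
Level of each of the 34 genes as log2(CPM + 1), by colour, with a row per gene and a column per library. The genes are ordered by mean level in non-Tg myeloid libraries, and the neuron columns are dark for most genes, with 19 of 34 under 1 CPM in non-Tg neurons.

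The interferon genes read here, chosen after their values were seen, were not detected. Ifnb1 and Ifng had 0 counts in all 30 libraries, which allows up to 3 counts, or 0.444 to 1.49 CPM, per library. In bulk libraries a lower level cannot be told apart between fewer expressing cells and less RNA per cell.

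The first genotype comparison set PS2APP against non-Tg myeloid cells. Of the 34 genes 30 passed the filter on low counts, and those left out were Ifit1, Isg15, Rsad2 and Ifi44. By the edgeR quasi-likelihood test 3 rose (Stat2, Zbp1 and Ifi204) and 1 fell (Xaf1), where 3.36% of all 12274 genes were called (1.86% higher, 1.5% lower). The DESeq2 Wald test called these 4 and added Ifi27l2a (adjusted p = 0.013) and Rnf213 (0.045), where it called 8.11% of all genes. In 24 of the 30 the log2 fold change was above 0, its median being 0.57 beside -0.0021 over all genes tested, and 9 had an unadjusted p under 0.05, as did 2375 of all 12274 genes (19.3%). For Stat2 and Ifi204, both higher, the groups did not overlap in CPM, 6.67% of the 30 genes beside 5.19% of all genes tested. Of all 12274 genes, 183 were apart and higher and 454 apart and lower.

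Stat2 (chromosome 10, 128270498 to 128292853, GRCm38.p6), the transcription factor that carries the type I signal to the nucleus, stood at 120, 120, 114, 86.3 and 73.6 CPM in the 5 non-Tg myeloid libraries. In the PS2APP libraries it stood at 141, 162, 297, 124 and 239 CPM. Every PS2APP library lay above every non-Tg library, and replicates 3 and 5 were highest. This gave a log2 fold change of 0.98 ± 0.21 (SE, n = 5 against 5; edgeR adjusted p = 0.016). The call was kept in 7 of 10 fits that left out 1 library. It was lost without non-Tg replicate 4 or 5 (edgeR adjusted p = 0.057 each) or PS2APP replicate 3 (0.056). Stat2 overlaps Apof in the annotation.

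Zbp1 (chromosome 2, 173206612 to 173218959), a sensor of nucleic acid in the Z form that can trigger cell death, stood at 22.3, 25.3, 11.3, 10.2 and 7.59 CPM in non-Tg libraries. In PS2APP libraries it stood at 26.6, 27.7, 91.5, 79.7 and 22.8 CPM. PS2APP replicates 3 and 4 stood far above the other 3, and PS2APP replicate 5 lay below the highest non-Tg library. The log2 fold change was 1.78 ± 0.41 (edgeR adjusted p = 0.022). The call was lost without non-Tg replicate 3, 4 or 5 (0.0503, 0.074 and 0.066) or PS2APP replicate 3 or 4 (0.075 and 0.062), and in 1 fit of all 30 libraries (edgeR adjusted p = 0.062).

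Ifi204 (chromosome 1, 173747293 to 173767069), of the family of DNA sensors that activate Sting, stood at 10.5, 14.2, 7.51, 9.87 and 6.51 CPM in non-Tg libraries. In PS2APP libraries it stood at 15.5, 27.2, 34.4, 16.7 and 18.1 CPM, with no overlap between the groups. Its log2 fold change was 1.28 ± 0.35 (edgeR adjusted p = 0.048). This was the call nearest the threshold, kept in 3 of 10 fits that left out 1 library. Without non-Tg replicates 3, 4 and 5 in turn the adjusted p was 0.10, 0.12 and 0.12. Without PS2APP replicates 2, 3, 4 and 5 in turn it was 0.080, 0.14, 0.060 and 0.064. It was 0.15 in 1 fit of all 30 libraries. Of the 50-base stretches of Ifi204 transcripts, 20.0% also occur in other genes such as Ifi211 and Mndal, so reads could be lost or shared among them.

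Xaf1 (chromosome 11, 72301461 to 72313733), an interferon-inducible gene that promotes cell death, went against the other called genes. It stood at 30.7, 59.3, 28.3, 25.4 and 49.3 CPM in non-Tg and at 7.94, 14.9, 26.6, 10.7 and 12.7 CPM in PS2APP myeloid libraries. PS2APP replicate 3, at 26.6 CPM, overlapped the lowest non-Tg library. Its log2 fold change was -1.32 ± 0.34 (edgeR adjusted p = 0.033), kept in 3 of 10 fits that left out 1 library. The call was lost without non-Tg replicates 2, 4 and 5 (0.091, 0.052 and 0.099) and without PS2APP replicates 1, 2, 4 and 5 (0.072, 0.052, 0.071 and 0.072).

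**Figure D2:**
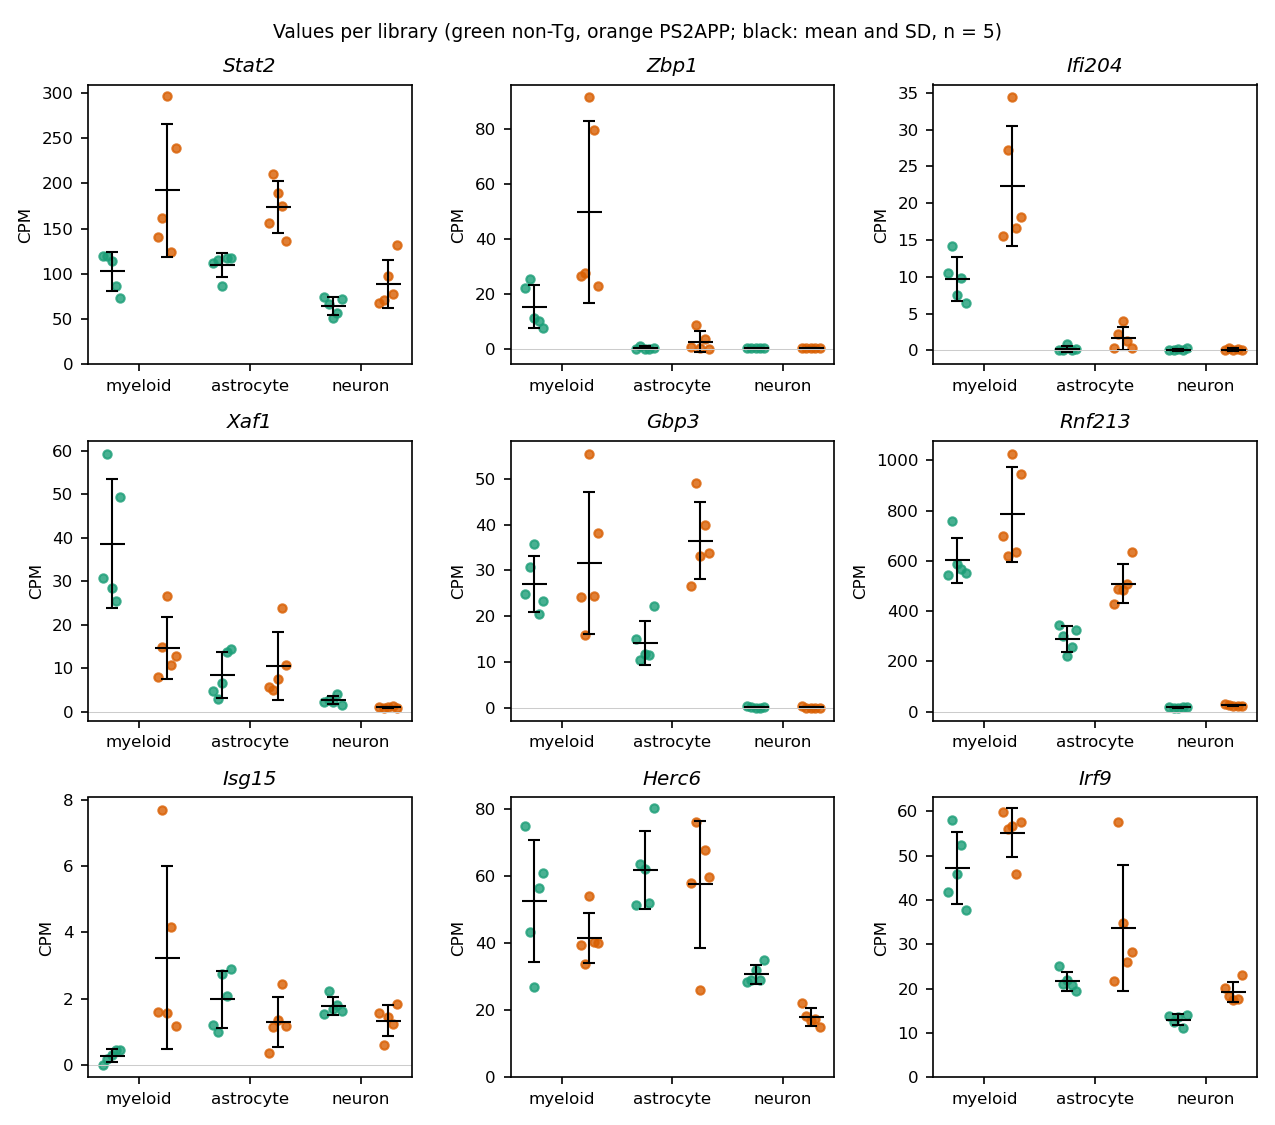
CPM of 9 genes in each library, with non-Tg in green, PS2APP in orange, and the mean and SD (n = 5) in black; the axes include 0 and differ between genes. In myeloid libraries Stat2, Zbp1 and Ifi204 were called higher in PS2APP and Xaf1 lower, and in astrocyte libraries Gbp3 and Rnf213 were called higher.

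The receptor chains had values below 0 in myeloid libraries and were not called. Ifnar2 stood at 178, 187, 186, 222 and 213 CPM in non-Tg and at 86.9, 141, 164, 194 and 165 CPM in PS2APP libraries (log2 fold change -0.31 ± 0.19, edgeR adjusted p = 0.38). Ifnar1 stood at 85.5, 118, 136, 106 and 96.1 CPM and at 88.5, 105, 110, 102 and 56.3 CPM (-0.15 ± 0.20, edgeR adjusted p = 0.73). The groups overlapped in both, with PS2APP replicate 1 lowest for Ifnar2 and replicate 5 lowest for Ifnar1.

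Among the factors beside Stat2 none was called. Irf9 stood at 41.7, 58.0, 45.9, 52.4 and 37.8 CPM in non-Tg and at 59.9, 55.9, 56.7, 45.8 and 57.5 CPM in PS2APP libraries (0.31 ± 0.20). Irf7 stood at 12, 27.9, 6.93, 7.90 and 4.34 CPM and at 13.9, 8.21, 20.3, 7.73 and 31.6 CPM (0.55 ± 0.47). Irf1 stood at 53.8, 31.1, 24.8, 20.1 and 21.1 CPM and at 25.8, 36.4, 54.3, 24.4 and 28.2 CPM (0.24 ± 0.31). Their groups overlapped, and in Irf7 and Irf1 the libraries of a group differed more than the group means (edgeR adjusted p = 0.56 and 0.71).

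All 3 genes of the OAS family, known for making the messenger that activates RNase L, had values above 0, from 0.76 (Oas2) to 1.05 (Oasl2). Oasl2 stood at 13.6, 40.0, 13.9, 22.2 and 9.76 CPM in non-Tg and at 9.53, 59.5, 52.4, 36.9 and 36.3 CPM in PS2APP libraries (1.05 ± 0.40, edgeR adjusted p = 0.15). PS2APP replicate 1 was the lowest of the 10 and 2 of the other 4 lay above the highest non-Tg library. The call was made without PS2APP replicate 1 (edgeR adjusted p = 0.047) and with no filter on low counts (0.033). Oas1a shares 57.6% of its 50-base stretches with Oas1g and Oas1b, so its counts are uncertain.

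The GTPases Mx1, Gbp2 and Gbp3 and the giant ATPase Rnf213 had log2 fold changes of 0.30 (Gbp3) to 1.41 (Gbp2) and were not called by edgeR, with Rnf213 at 0.46 ± 0.16 (edgeR adjusted p = 0.10). The membrane proteins, which block virus entry and release, had 0.59 ± 0.50 (Ifitm3) and 0.70 ± 0.42 (Bst2). Ifitm3 stood at 6.15, 8.72, 6.35, 11.5 and 3.69 CPM in non-Tg and at 3.17, 16.9, 9.77, 4.76 and 17.4 CPM in PS2APP libraries. Bst2, also called tetherin, stood at 9.73, 13.7, 11.8, 3.95 and 16.3 CPM and at 16.7, 15.9, 27.8, 18.4 and 6.17 CPM. In both genes 2 of the 5 PS2APP libraries lay within the non-Tg range.

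Usp18, the protease that removes Isg15 and brakes the receptor, stood at 11.5, 14.4, 13.3, 4.71 and 9.76 CPM in non-Tg and at 7.94, 31.3, 11.7, 13.7 and 12.3 CPM in PS2APP libraries (0.61 ± 0.43). Apart from replicate 2, the PS2APP libraries lay within the non-Tg range. Ifit3 stood at 10.2, 17.1, 5.20, 3.34 and 1.52 CPM and at 7.14, 10.3, 8.21, 5.95 and 11.2 CPM (0.28 ± 0.54). Cxcl10, a chemokine for T cells, stood at 1.79, 11.2, 0.578, 1.98 and 1.08 CPM and at 4.37, 7.70, 15.6, 1.78 and 7.33 CPM (1.21 ± 0.68). Both overlapped, and for Ifit3 all 5 PS2APP libraries lay within the non-Tg range. Rsad2, the antiviral enzyme viperin, was too low to test, with PS2APP replicate 4 at 20.8 CPM and the other 9 libraries at 0 to 3.95 CPM.

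Ifi27l2a, a small interferon-inducible gene, came nearest to a call by edgeR. Its mean was 8.71 ± 1.53 CPM (SD, n = 5) in the non-Tg group against 20.6 ± 10.8 CPM with PS2APP (1.32 ± 0.39, edgeR adjusted p = 0.063). Dtx3l, a ubiquitin ligase that works with Parp9, was below 0 at -0.47 ± 0.22 (edgeR adjusted p = 0.25). Parp9 and Parp14, of the ADP-ribosyltransferase family, were at 0.48 ± 0.29 and 0.23 ± 0.20. Parp9 and Dtx3l overlap, and whether counting used strand is not stated. Herc6, the mouse ligase for Isg15, and Trim30a had -0.26 ± 0.25 and -0.19 ± 0.18. Ifit2, Rtp4 and Ifi35 had 0.93, 0.91 and 0.26, each with an edgeR adjusted p of 0.27 or more.

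One library often held the highest value. PS2APP myeloid replicate 3 was the highest of 10 libraries for 11 of the 30 genes, and its level summed over these genes was 2804 CPM, beside 1680 to 2384 CPM in the other PS2APP libraries. Without this library 1 of 31 genes was called. Among non-Tg libraries replicate 2 was the highest of 5 for 18 genes and replicate 5 the lowest of 5 for 13. Leaving out non-Tg replicate 4 or replicate 5 left 0 genes called, while 105 and 120 genes were still called in the whole table. Leaving out non-Tg replicate 3, or PS2APP replicate 2 or 5, left 2. Leaving out PS2APP replicate 4 also gave 2, Stat2 and the newly called Ifi27l2a (edgeR adjusted p = 0.0413), with Zbp1, Ifi204 and Xaf1 lost. Leaving out PS2APP replicate 1 gave 5, with Xaf1 lost (edgeR adjusted p = 0.072) and Oasl2 (0.047) and Ifi27l2a (0.0445) added.

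**Figure D3:**
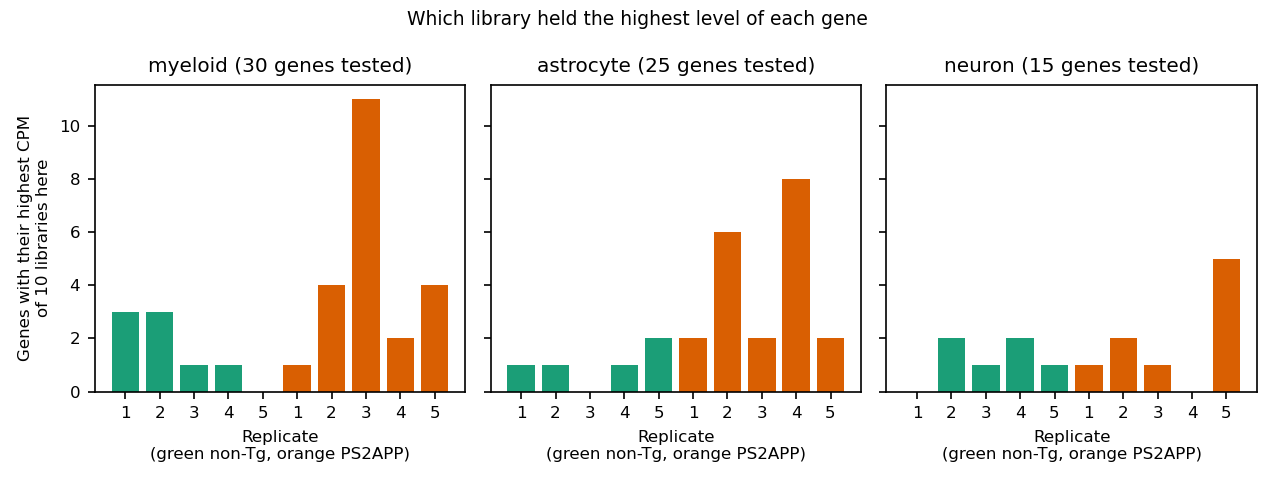
Number of tested genes whose highest CPM among the 10 libraries of a sort fell in each library, with non-Tg in green and PS2APP in orange. The tallest bar is PS2APP myeloid replicate 3, with 11 of 30 genes.

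The wider pathway was read from a list of 90 further genes, also chosen with earlier results known. In myeloid libraries 74 were tested, and by the edgeR quasi-likelihood test 6 rose and 2 fell, 10.8% of those tested beside the 3.36% of all genes. Their median log2 fold change was 0.13, beside -0.0021 over all genes. Lgals3bp, a secreted glycoprotein, went from 40.8 ± 11.6 to 84.4 ± 28.7 CPM (log2 fold change 1.12 ± 0.23). Shfl, an inhibitor of viral frameshifting, went from 57.7 ± 17.8 to 104 ± 23.3 CPM (0.94 ± 0.22). Gbp6, a guanylate-binding protein, went from 1.22 ± 0.672 to 6.76 ± 4.42 CPM (2.52 ± 0.60; SD and n = 5 for CPM, SE for fold changes). The other 3 that rose, named after their values were seen, were Irf3, a factor that turns on interferon genes, Iigp1 and Sp110. Those that fell were Tlr7, a sensor of single-stranded RNA, with -0.90 ± 0.22, and Ifngr1, a chain of the interferon gamma receptor, with -0.66 ± 0.17. Of the 13 genes of receptor signalling 11 were tested, 0 rose and Ifngr1 fell.

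Markers of other cells moved with genotype in the myeloid sort. The 10 neuron markers summed to 168 to 281 CPM in non-Tg and 231 to 369 CPM in PS2APP libraries, with 9 of 10 higher. The 7 oligodendrocyte markers summed to 712 to 1094 and 1158 to 1784 CPM, with 3 of 7 higher. The 10 myeloid markers summed to 9093 to 10850 CPM in non-Tg and 5983 to 9127 CPM in PS2APP libraries, with 0 of 10 higher. The 6 monocyte and neutrophil markers summed to 67.6 to 954 CPM and 13.5 to 614 CPM, with 1 of 6 higher. The 8 astrocyte markers summed to 530 to 1047 and 612 to 956 CPM, with 2 of 8 higher. No sum passed after adjustment over 24 two-sided exact permutation tests (lowest adjusted p = 0.0952). Single markers did pass, 8 of the 44 tested by edgeR. Those higher in PS2APP myeloid libraries were Gfap, an astrocyte filament gene, with a log2 fold change of 2.77 ± 0.25, Flt1, an endothelial receptor, with 1.77 ± 0.42, and the myelin genes Mbp and Mobp with 0.84 ± 0.20 and 0.90 ± 0.20. Those lower were Ccr2, a monocyte receptor, with -2.16 ± 0.41, the astrocyte water channel Aqp4 with -1.64 ± 0.41, and the microglial genes Cx3cr1 and Tmem119 with -0.58 ± 0.15 and -0.71 ± 0.19. The part of these single markers in the results was not tested. With the summed astrocyte and neuron markers as a covariate, the same 4 genes were called and Rnf213 was added. Most of that sum was astrocyte markers, at 774 and 756 CPM in non-Tg and PS2APP libraries beside 214 and 310 CPM for neuron markers. Oligodendrocyte, endothelial, monocyte and neutrophil markers were not in it, and their part in the results was not tested. With mitochondrial genes left out the same 4 were called. The part of the lower depth in these results was not tested. All 6 lymphocyte markers were under 1 CPM.

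In astrocytes the genes that rose were a guanylate-binding GTPase gene and a giant ATPase gene. Of 25 genes tested, Gbp3 and Rnf213 rose and 0 fell by the edgeR quasi-likelihood test, where 0.185% of all 14043 genes were called, all of them higher. In 21 of the 25 the log2 fold change was above 0, its median being 0.66 beside 0.01 over all genes tested, and 11 had an unadjusted p under 0.05, as did 2415 of all 14043 genes (17.2%). The groups did not overlap in CPM for 5 genes, all higher (Gbp3, Rnf213, Stat2, Parp14 and Oas2), 20.0% of the 25 beside 2.98% of all genes tested. Of all 14043 genes, 163 were apart and higher and 255 apart and lower. The 9 genes left out for low counts included both sensors, Zbp1 and Ifi204, and both membrane proteins, Ifitm3 and Bst2. Zbp1 stood at 0 to 1.19 CPM in non-Tg astrocyte libraries, and at 8.82 and 3.47 CPM in PS2APP replicates 2 and 4 with the other 3 at 0 to 0.71 CPM.

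Gbp3 (chromosome 3, 142560016 to 142573213), a GTPase that coats pathogen membranes and whose promoter is printed above, stood at 15.0, 10.3, 11.8, 11.5 and 22.1 CPM in non-Tg astrocyte libraries. In PS2APP libraries it stood at 26.6, 49.1, 33.1, 39.8 and 33.8 CPM. Every PS2APP library lay above every non-Tg one. The log2 fold change was 1.38 ± 0.27 (SE, n = 5 against 5; edgeR adjusted p = 0.041), the mean going from 14.2 ± 4.78 to 36.5 ± 8.44 CPM (SD). In neurons Gbp3 was at or below the level of 3 counts in every library.

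Rnf213 (chromosome 11, 119389950 to 119487418), a giant ATPase and ubiquitin ligase known as the moyamoya disease gene, stood at 343, 302, 220, 255 and 326 CPM in non-Tg astrocyte libraries. In PS2APP libraries it stood at 429, 489, 484, 509 and 636 CPM. All PS2APP libraries lay above all non-Tg ones. The log2 fold change was 0.83 ± 0.16 (edgeR adjusted p = 0.041). Rnf213 transcripts share no 50-base stretch with another gene, and the gene overlaps A930037H05Rik in the annotation.

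Both calls depended on the libraries in the fit. For Gbp3 the edgeR adjusted p rose to 0.11 without non-Tg replicate 2, 3 or 4, and to 0.12, 0.067 and 0.055 without PS2APP replicates 2, 4 and 5. For Rnf213 it rose to 0.11, 0.12, 0.11 and 0.088 without non-Tg replicates 2, 3, 4 and 5, and to 0.11, 0.062 and 0.085 without PS2APP replicates 2, 4 and 5. Over all 10 fits that left out 1 library the log2 fold change stayed between 1.26 and 1.58 for Gbp3 and between 0.74 and 0.90 for Rnf213. The DESeq2 Wald test called 4 genes, adding Stat2 (adjusted p = 0.012) and Parp14 (0.016), where 2.31% of all genes were called.

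Stat2 and Parp14 lay close behind in astrocytes. Stat2 stood at 112, 116, 86.8, 117 and 117 CPM in non-Tg and at 157, 211, 189, 175 and 136 CPM in PS2APP libraries, without overlap (log2 fold change 0.67 ± 0.17, edgeR adjusted p = 0.097). Parp14, an ADP-ribosyltransferase of the response, stood at 3.81, 3.98, 9.72, 16.7 and 16.6 CPM in non-Tg and at 26.6, 25.3, 23.7, 32.1 and 30.3 CPM in PS2APP libraries (1.45 ± 0.38, edgeR adjusted p = 0.11). The PS2APP libraries were tight for Parp14, and the non-Tg libraries fell into a low and a higher set. Oas2 also did not overlap, at 3.25 ± 0.519 and 7.16 ± 1.88 CPM (1.15 ± 0.42, edgeR adjusted p = 0.19).

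The receptor chains and the other factors were not called in astrocytes. Ifnar2 stood at 13.6, 15.7, 20.6, 25.6 and 27.7 CPM in non-Tg and at 36.6, 21.9, 22, 28.4 and 30.3 CPM in PS2APP libraries (0.44 ± 0.27). Ifnar1 stood at 109, 41.6, 54.4, 45.4 and 68.3 CPM and at 49.0, 67.1, 67.6, 81.5 and 51.1 CPM (0.01 ± 0.25). Both overlapped, and for Ifnar1 non-Tg replicate 1 held the highest value of the 10.

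Irf9 stood at 25.1, 21.1, 21.9, 20.9 and 19.5 CPM in non-Tg and at 21.7, 57.5, 34.8, 25.9 and 28.3 CPM in PS2APP astrocyte libraries (0.65 ± 0.27, edgeR adjusted p = 0.23). Only PS2APP replicate 1 lay within the non-Tg range. Irf7 stood at 2.00, 2.98, 3.34, 2.68 and 6.25 CPM and at 9.23, 0.767, 0, 6.94 and 1.18 CPM (0.12 ± 0.74), with PS2APP libraries at both ends of the range. Irf1 stood at 15.4, 13.3, 10.9, 4.17 and 7.70 CPM and at 16.7, 5.75, 9.81, 17.6 and 13.8 CPM (0.33 ± 0.40), with wide overlap.

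Among effectors, Oasl2 stood at 6.81, 4.77, 6.38, 21.9 and 24.5 CPM in non-Tg and at 20.2, 34.5, 22.3, 34.7 and 24.8 CPM in PS2APP astrocyte libraries (1.09 ± 0.41, edgeR adjusted p = 0.19). As for Parp14, non-Tg replicates 4 and 5 stood above the other 3, and here they overlapped the PS2APP libraries. Usp18 stood at 1.20, 1.59, 3.04, 2.68 and 3.13 CPM and at 2.84, 10.7, 4.73, 4.08 and 4.33 CPM (1.20 ± 0.52, edgeR adjusted p = 0.25). Only PS2APP replicate 1 overlapped the non-Tg libraries there.

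Ifit3 stood at 6.41, 4.38, 4.86, 7.30 and 23.1 CPM in non-Tg and at 13.5, 6.90, 8.79, 29.0 and 11.4 CPM in PS2APP astrocyte libraries (0.63 ± 0.48). It shares 51.2% of its 50-base stretches with Ifit3b, and its counts are uncertain. Rsad2 stood at 3.81, 1.59, 2.73, 1.04 and 10.6 CPM and at 2.49, 2.30, 1.69, 9.80 and 0.787 CPM (-0.12 ± 0.69). In both genes non-Tg replicate 5 and PS2APP replicate 4 stood above the rest of their groups. Cxcl10 stood at 4.81, 1.79, 0.911, 0 and 4.33 CPM and at 2.13, 5.75, 0.676, 8.37 and 4.33 CPM (0.88 ± 0.77), with wide overlap. Ifit1 and Ifit2 had opposite signs, at 1.0 ± 0.43 and -0.92 ± 0.51, and neither was called. Ifitm3 and Bst2 were too low to test. Ifitm3 stood at 1.20, 0.597, 0.607, 5.06 and 2.40 CPM and at 6.04, 1.92, 0, 5.72 and 4.33 CPM, and Bst2 at 0, 0.199, 0, 1.94 and 2.65 CPM and at 2.84, 0.767, 1.69, 3.88 and 0.787 CPM. Both overlapped. Herc6 and Ifi35 had log2 fold changes of -0.09 ± 0.24 and -0.23 ± 0.56.

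Of the 90 further pathway genes 49 were tested and 0 were called, with a median log2 fold change of 0.52 (0.01 over all genes tested) and 20 with an unadjusted p under 0.05, beside 17.2% of all genes.

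Myeloid markers were also higher in PS2APP astrocyte libraries. The 10 markers summed to 40.9 to 74.1 CPM in non-Tg and 75.1 to 152 CPM in PS2APP libraries, with 9 of 10 higher and no overlap (p = 0.00794 by the exact permutation test, 0.0952 after adjustment over the 24 tests). Of 36 single markers tested by edgeR 2 were called, both myeloid and both higher: Csf1r, the receptor microglia depend on, with 1.5 ± 0.25 and Fcrls with 2.98 ± 0.56. Summed neuron markers were 671 to 986 and 847 to 1959 CPM, with 8 of 10 higher. Summed oligodendrocyte markers were 794 to 1225 and 997 to 2083 CPM, with 5 of 7 higher (exact permutation p = 0.0317, adjusted p = 0.152). The 8 astrocyte markers summed to 9446 to 16940 CPM in non-Tg and 7210 to 11150 CPM in PS2APP libraries, with 3 of 8 higher (exact permutation p = 0.0714, adjusted p = 0.214). With the summed markers of the neuron and myeloid sorts as a covariate 0 of the 25 genes were called and 4 of all genes were. The log2 fold changes were then 1.41 for Gbp3 and 0.82 for Rnf213 (edgeR adjusted p = 0.41 and 0.37). Most of that sum was neuron markers, at 792 and 1178 CPM in non-Tg and PS2APP libraries beside 62.2 and 119 CPM for myeloid markers. The covariate therefore does not separate myeloid from neuron RNA. The summed myeloid markers of PS2APP astrocyte libraries amounted to 1.55% of their level in PS2APP myeloid libraries. Gbp3 stood at 115% of its myeloid level in the same libraries, Rnf213 at 65.0%, Stat2 at 90.2%, Parp14 at 16.1% and Trim30a at 11.0%. Over all 34 genes 30 stood above 10%, and those that did not were Zbp1 (5.38%), Ifi204 (7.45%), Mx1 (9.16%) and Ifi27l2a (3.47%). Of the 30, some rest on few PS2APP myeloid and astrocyte counts, such as 15 and 14 for Ifi44 and 61 and 10 for Oas1a. These percentages compare levels, not genotype changes, and the part of myeloid RNA in those changes was not tested.

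**Figure D4:**
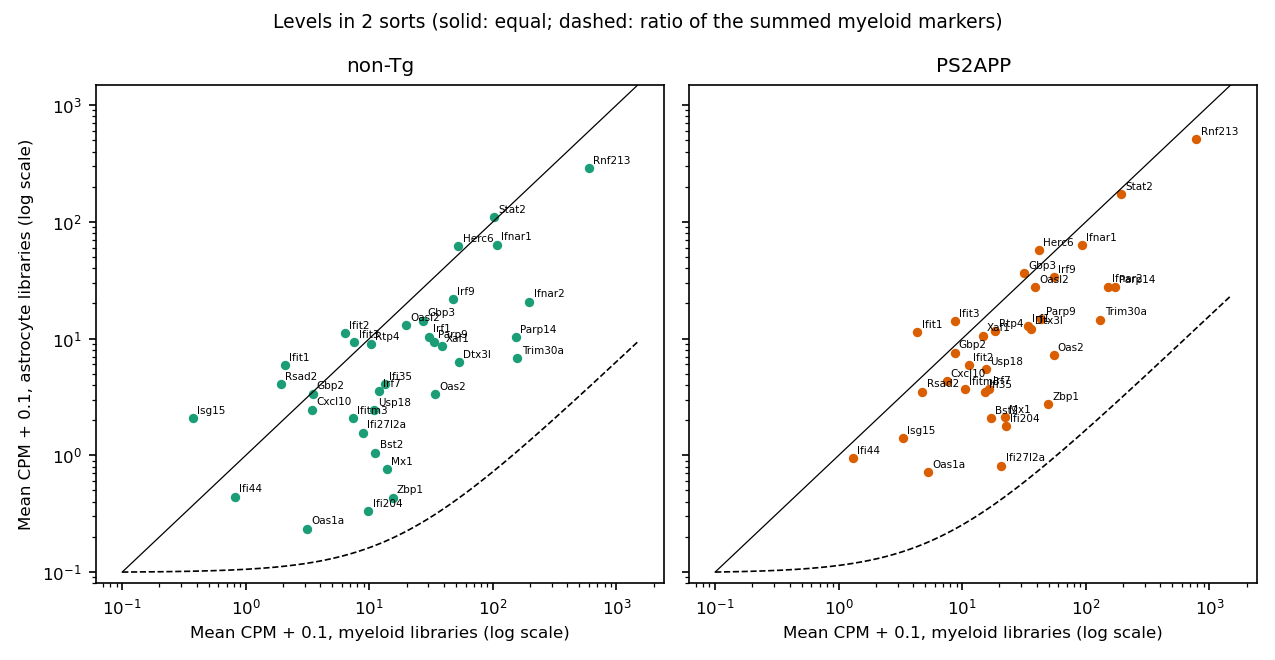
Mean CPM of each gene in astrocyte libraries against myeloid libraries, on log axes with a small constant added, for non-Tg (left) and PS2APP (right). The solid line marks equal levels and the dashed line the astrocyte to myeloid ratio of the summed myeloid markers, 0.624% in non-Tg and 1.55% in PS2APP, and all 34 genes lie above the dashed line.

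In neurons no gene passed the test. Of 15 genes tested by the edgeR quasi-likelihood test 0 were called, and 0.00623% of all 16064 genes were. An unadjusted p under 0.05 was found for 5 of the 15 and for 3671 of all genes (22.9%). The 15 had 9 positive and 6 negative values with a median log2 fold change of 0.14, beside -0.02 over all genes tested. The DESeq2 Wald test called 2, Herc6 (adjusted p = 0.00017) and Irf9 (0.031), where it called 0.989% of all genes. The groups did not overlap in CPM for 4 genes, 26.7% of the 15 beside 3.08% of all genes tested (1.32% higher, 1.76% lower).

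Of these 4, Herc6 and Xaf1 were lower and Irf9 and Rnf213 higher in PS2APP neurons. Herc6, the ligase that attaches Isg15, stood at 28.3, 29.1, 32.1, 28.9 and 35.0 CPM in non-Tg and at 22.2, 18.4, 16.8, 17.5 and 15.1 CPM in PS2APP libraries (log2 fold change -0.78 ± 0.14, edgeR adjusted p = 0.13). Irf9 stood at 13.8, 12.4, 13.6, 11.2 and 14.0 CPM in non-Tg and at 20.1, 18.2, 17.4, 17.8 and 23.0 CPM in PS2APP libraries (0.55 ± 0.14, edgeR adjusted p = 0.19). Both were narrow in spread, with each PS2APP library on the same side of every non-Tg one. Xaf1 was low here, at 2.55 ± 0.919 and 0.959 ± 0.178 CPM, with 89 and 29 counts over 5 libraries (-1.39 ± 0.31, edgeR adjusted p = 0.19). Rnf213 stood at 16.4 ± 2.28 and 24.1 ± 3.43 CPM (0.53 ± 0.15, edgeR adjusted p = 0.19). Of 33 single cell markers tested by edgeR in neuron libraries 0 were called. Gfap was higher with PS2APP without overlap, at 1.78 ± 0.26 (edgeR adjusted p = 0.059). Mean marker sums rose from 193 to 250 CPM for oligodendrocytes and from 65.9 to 77.8 CPM for myeloid cells. For astrocytes the sum fell from 413 to 326 CPM. Their exact permutation adjusted p were 0.21, 0.52 and 0.30. The part of Gfap and of oligodendrocyte RNA in these 4 genes was not tested.

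Neither receptor chain was called in neurons. Ifnar2 stood at 9.68, 11.2, 10.3, 10.2 and 10.4 CPM in non-Tg and at 11.5, 13.8, 13.4, 9.65 and 9.39 CPM in PS2APP libraries (0.14 ± 0.16). Ifnar1 stood at 37.3, 35.0, 27.6, 30.1 and 34.2 CPM and at 39.0, 40.7, 41.9, 28.7 and 35.2 CPM (0.16 ± 0.14). Both overlapped.

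The factors Irf1 and Irf7 were low in neurons. Irf1 stood at 7.22, 7.17, 5.41, 5.09 and 7.29 CPM in non-Tg and at 7.21, 6.40, 6.61, 7.44 and 10.1 CPM in PS2APP libraries (0.21 ± 0.19). Irf7 stood at 1.69, 2.24, 1.12, 1.95 and 1.22 CPM and at 2.14, 1.94, 1.13, 1.52 and 1.17 CPM (-0.11 ± 0.30). Isg15 stood at 1.54, 2.24, 1.68, 1.80 and 1.62 CPM and at 1.56, 0.582, 1.45, 1.24 and 1.85 CPM (-0.43 ± 0.30). All 3 overlapped and none was called. The effectors Ifit3, Ifitm3, Bst2, Oasl2, Usp18, Cxcl10 and Rsad2 were too low to test in neurons. Of these Ifit3 reached 2.01 CPM in 1 library and the others at most 1.34 CPM.

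Herc6 shares 12.5% of its 50-base stretches with other transcripts. Stat2 in neurons stood at 74.3, 66.6, 51.1, 56.3 and 71.8 CPM in non-Tg and at 67.4, 71.6, 97.8, 77.7 and 132 CPM in PS2APP libraries (0.46 ± 0.18, edgeR adjusted p = 0.19). PS2APP replicate 5 was far the highest, and replicates 1 and 2 lay within the non-Tg range. PS2APP neuron replicate 5 was the highest of 10 libraries for 5 of 15 genes, and without it 0 genes were called. Of the 90 further pathway genes 40 were tested and 0 called by edgeR, and 7 of the 40 had an unadjusted p under 0.05, beside 22.9% of all genes.

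**Figure D5:**
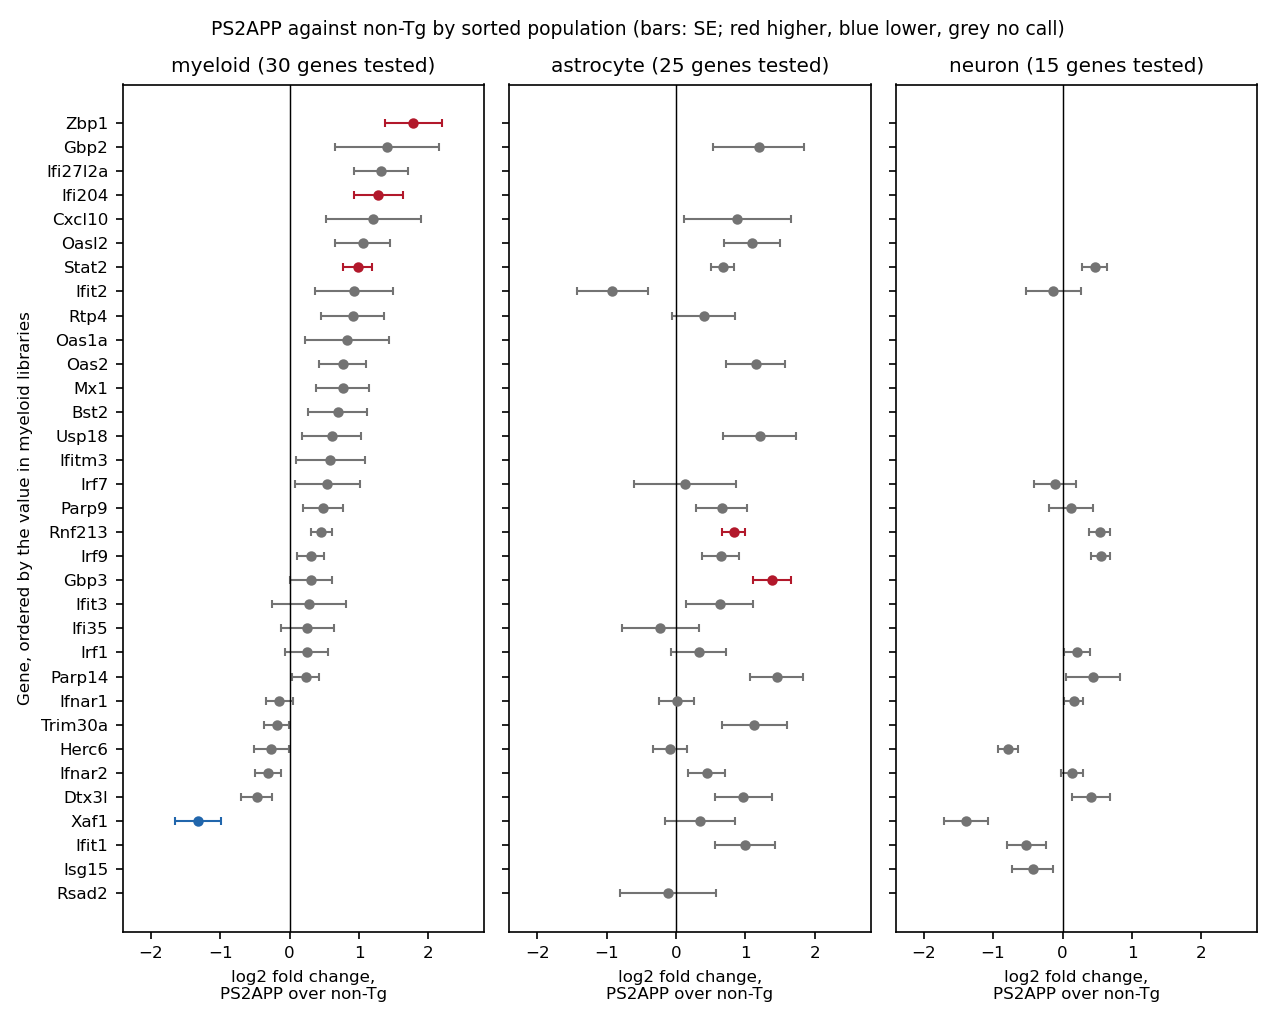
Log2 fold change of PS2APP over non-Tg with its SE for each gene tested in myeloid (30 genes), astrocyte (25) and neuron libraries (15), red where called higher, blue where called lower and grey where not called. Xaf1 is the gene called lower, in myeloid libraries.

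Read side by side, 13 genes were tested in all 3 sorts. The sorts share no library. Irf1, Irf9, Stat2, Rnf213, Parp9 and Parp14 had positive values in all 3, and Herc6 had negative values in all 3. The myeloid and astrocyte values of Irf1, the astrocyte value of Herc6 and the neuron value of Parp9 were smaller than their SE, and those of Herc6 and Parp9 turned sign in some alternatives. In the order myeloid, astrocyte, neuron the log2 fold changes were 0.98, 0.67 and 0.46 for Stat2. Rnf213 had 0.46, 0.83 and 0.53. Xaf1 had -1.32, 0.34 and -1.39, and its astrocyte value turned to -0.23 without PS2APP astrocyte replicate 4. Parp14 had 0.23, 1.45 and 0.44. Ifi44 was tested in none.

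Whether these effects differed between sorts was tested in 1 edgeR fit of all 30 libraries, over 33 genes. Between myeloid and astrocyte libraries 1 gene was called, Isg15, where 0.757% of all 18101 genes were. Isg15 (chromosome 4, 156199424 to 156200818) stood at 0, 0.178, 0.289, 0.456 and 0.434 CPM in non-Tg and at 1.59, 7.70, 1.56, 4.16 and 1.16 CPM in PS2APP myeloid libraries. In astrocytes it stood at 1.20, 0.994, 2.73, 2.09 and 2.89 CPM in non-Tg and at 0.355, 1.15, 1.35, 2.45 and 1.18 CPM in PS2APP libraries. The myeloid groups did not overlap, and the astrocyte groups did. Isg15 did not pass the filter on low counts in the myeloid or the astrocyte libraries alone. It passed that filter in the neuron libraries, which do not enter this difference. It reached this test only because the filter of the joint fit took all 30 libraries together.

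The difference of the Isg15 log2 fold changes, myeloid minus astrocyte, was 3.89 ± 0.87 (edgeR adjusted p = 0.021). It rests on few counts, 7 and 33 in the myeloid and 46 and 23 in the astrocyte groups, and the fitted size depends on the prior count. The call was lost without PS2APP myeloid replicate 2 (edgeR adjusted p = 0.058), and without the 3 libraries farthest out on the first principal components (0.054), a setting chosen after seeing the data. Isg15 did not pass a minimum count of 30, and it shares 3.96% of its 50-base stretches with another gene. Against neurons the difference for Isg15 was 3.76 ± 0.85 (edgeR adjusted p = 0.067).

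No other difference was called. Between myeloid and astrocyte effects, Dtx3l had -1.51 ± 0.41 (edgeR adjusted p = 0.066), Trim30a -1.41 ± 0.43 (0.12), Xaf1 -1.74 ± 0.58 (0.16) and Parp14 -1.28 ± 0.44 (0.16). In these 4 the astrocyte value was the higher. Between myeloid and neuron effects 0 genes were called with 3 of 33 at an unadjusted p under 0.05, beside 0.105% and 9.65% of all genes. Between astrocyte and neuron effects these were 0 and 4 genes, beside 0.0331% and 4.97% of all genes. DESeq2 called 1 and 0. Among the 90 further pathway genes, 2 of 77 differed between myeloid and astrocyte effects: Irf8, a myeloid lineage factor, with -2.72 ± 0.50, and Slfn8 with -1.85 ± 0.41. Irf8 was too low to test in astrocyte libraries alone, and it entered the joint fit through the myeloid libraries. Irf8 stood at 0.563 ± 0.393 and 4.34 ± 2.55 CPM in non-Tg and PS2APP astrocyte libraries and at 333 ± 68.8 and 366 ± 53.0 CPM in myeloid libraries. Slfn8 stood at 1.83 ± 1.09 and 6.84 ± 1.0 CPM in astrocyte and at 165 ± 25.8 and 178 ± 35.4 CPM in myeloid libraries. The astrocyte level of Irf8 was 0.169% of the myeloid level in non-Tg and 1.19% in PS2APP, below the 0.624% and 1.55% of the summed myeloid markers, and that of Slfn8 was 1.1% and 3.85%. The part of myeloid RNA in these 2 differences was not tested.

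Genes with and without an ISRE core in their promoter window were set side by side as a description. In myeloid libraries the 9 tested genes with a core had a median log2 fold change of 0.70 (-0.19 to 1.41) and the 12 without one 0.25 (-1.32 to 1.05). In astrocyte libraries the medians were 0.94 over 8 genes and 0.34 over 12. In neuron libraries they were -0.43 over 3 genes and 0.15 over 10. The ranges overlapped in each sort, and Rnf213, called in astrocytes, was among the genes without a core.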

How the data were processed

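RNA-seq counts and RPKM of 30 libraries were analysed. Per the file headers, the deposited counts are reads with a unique alignment to a gene model, and the deposited RPKM were adjusted by the authors with a size factor. GSNAP and GRCm38 are named in the submitters' processing notes; for versions, annotation and strand use the sources used here give nothing. Unique alignment can undercount genes with close copies.

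The 34 genes and all lists were chosen with earlier results of these data known, and any of the 34 could be named. Values per library were to be given for called genes, receptors, transcription factors and 8 other genes (ranges only near the level of 3 counts), and for further pathway genes the 3 of smallest p each way. Symbols came from RefSeq (GRCm38.p6) and matched 31049 of 36528 identifiers, which hold 96.75% of counts. Groups came from the labels; replicates all differed beyond sampling noise (chi-square over its degrees of freedom at least 4.06).

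Each sort was tested alone, PS2APP against non-Tg, with edgeR 4.0.16 (R 4.3.3): filterByExpr with a minimum count of 10, TMM, the quasi-likelihood test, and p-values adjusted by Benjamini-Hochberg over all genes tested, called at 0.05. SE is the log2 fold change over the root of F. Differences between sorts came from 1 fit of all 30 libraries. Scripts were tested on simulated data. CPM use the TMM factors of all 30 libraries, so in myeloid libraries their PS2APP to non-Tg scale differs from that of the fold changes by a ratio of 0.945. A count of 3 corresponds to 0.444 to 1.49 CPM. RPKM were used for levels between genes alone. The level of 3 counts covers counting error only, while SD and SE include the spread between libraries. Marker sums were compared with two-sided exact permutation tests (scipy 1.17.1). Alternatives changed the normalization, filter, tool (DESeq2 1.42.0), covariate and libraries.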

Additional observations from a re-analysis of the deposited data

Results flagged for a closer look

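The difference of the PS2APP effect on Isg15 between myeloid and astrocyte libraries was 3.89 ± 0.87 on the log2 scale (edgeR interaction contrast, adjusted p = 0.021). It rests on 7 and 33 counts in the non-Tg and PS2APP myeloid groups, and Isg15 passed the filter in neither sort alone. The call was lost without PS2APP myeloid replicate 2 (edgeR adjusted p = 0.058).

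In 18 of 140 groups of 5 libraries, 1 library stood apart from the other 4 by Dixon's criterion. For independent, normally distributed values chance alone meets it in about 5% of groups. Some values here rest on low counts and the same libraries recur over genes, so the share to expect here is not known. In PS2APP myeloid libraries, Irf9 was 45.8 CPM in replicate 4 and 55.9 to 59.9 CPM in the others. Oas1a was 11.6 CPM in replicate 5 against 2.38 to 4.62 CPM, and Usp18 was 31.3 CPM in replicate 2 against 7.94 to 13.7 CPM. Gbp2 was 29.3 CPM in replicate 3 against 1.93 to 7.13 CPM. In non-Tg myeloid libraries, replicate 2 held Cxcl10 at 11.2 CPM against 0.578 to 1.98 CPM and Rnf213 at 757 CPM against 543 to 588 CPM. Replicate 4 held Parp9 at 48.3 CPM against 27.7 to 30.4 CPM.

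In non-Tg astrocyte libraries, replicate 5 was high for 3 genes. Ifit3 was 23.1 CPM there against 4.38 to 7.30 CPM, Rsad2 10.6 CPM against 1.04 to 3.81 CPM, and Trim30a 16.6 CPM against 3.41 to 5.37 CPM. Stat2 was low in replicate 3, at 86.8 CPM against 112 to 117 CPM. In PS2APP astrocyte libraries, replicate 2 held Usp18 at 10.7 CPM against 2.84 to 4.73 CPM and Gbp2 at 23.0 CPM against 1.57 to 7.56 CPM. Rsad2 was 9.80 CPM in replicate 4 against 0.787 to 2.49 CPM, and Parp9 was 25.6 CPM in replicate 5 against 8.88 to 13.4 CPM.

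In neuron libraries, Irf1 was 10.1 CPM in PS2APP replicate 5 against 6.40 to 7.44 CPM. Among non-Tg neuron libraries, Parp9 was 0.933 CPM in replicate 3 against 3.75 to 4.05 CPM, and Dtx3l was 2.61 CPM in replicate 1 against 1.76 to 1.90 CPM.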

How the results depend on the processing

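Counts of genes past an adjusted p of 0.05 were small, and single libraries moved them. Over fits that left out 1 library, the edgeR counts ranged from 0 to 5 in myeloid libraries (4 with all libraries), from 0 to 2 in astrocyte libraries (2) and stayed at 0 in neuron libraries. They ranged from 0 to 2 for the difference of the PS2APP effect between myeloid and astrocyte libraries (1), and from 0 to 1 between myeloid and neuron libraries (0). Counts of non-Tg levels stayed between 22 and 24, 32 and 33, and 23 and 25.

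In astrocyte libraries the count was 1 with a minimum count of 30, 4 with the DESeq2 Wald test, 4 with all 30 libraries in 1 fit and 0 with the marker covariate. The 4 of the joint fit included Gbp3, Rnf213 and Parp14 (edgeR adjusted p = 0.015). That fit also took in genes too low to test in astrocyte libraries alone, and its remaining call was such a gene. In neuron libraries DESeq2 gave 2. For the difference between myeloid and astrocyte effects, it was 0 with a minimum count of 30, 2 with DESeq2 and 0 without the 3 libraries farthest out on the first principal components, the setting chosen after seeing the data. For myeloid against neuron effects it was 1 with RLE normalization and 1 with DESeq2. The cause was not tested, apart from the minimum count of 30, which removed Isg15.

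Values of uncalled genes near 0 turned sign. With the marker covariate the astrocyte log2 fold changes were 0.64 for Rsad2, -0.32 for Rtp4, 0.64 for Ifi35, 0.54 for Herc6 and -0.32 for Ifnar1, and the neuron value of Parp9 was -0.056. Ifnar1 in astrocyte libraries was -0.014 with no filter, -0.020 with a minimum count of 30, -0.0095 with all 30 libraries in 1 fit and -0.00072 without mitochondrial genes. Without 1 library the values ranged from -0.21 to 0.0019 for Ifnar1 in myeloid libraries. In astrocyte libraries they ranged from -0.51 to 0.44 for Irf7, -0.38 to 0.12 for Rsad2, -0.23 to 0.60 for Xaf1, -0.36 to 0.059 for Ifi35, -0.20 to 0.094 for Herc6 and -0.12 to 0.29 for Ifnar1. In neuron libraries they ranged from -0.34 to 0.081 for Ifit2, -0.24 to 0.044 for Irf7 and -0.088 to 0.21 for Parp9.

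With 5 libraries a group and totals near 2015535 counts in the shallowest, genes at a few CPM carry wide errors. No paired analysis was possible because the labels give no replicate numbers that tie libraries across groups.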
